A study of Homo sapiens with 20 samples.

Results

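ABCA1, ABCG1, ABCG5 and ABCG8, the 4 ATP-binding cassette transporters that carry sterols out of cells, were followed through the differentiation of HepaRG cells. HepaRG cells come from a human liver tumor, and in culture their bipotent progenitors give rise to hepatocyte-like and biliary-like cells. Members were found by matching the accession of each array probe to the 4 symbols, which gave 5 probes, 2 of them for ABCA1, and 4 of the 22223 genes tested. All 4 genes passed the filter on dim probes.

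Gene expression was measured on 20 one-color Agilent arrays of Cy3-labelled total RNA, with 4 arrays in each of 5 conditions. D4 and D15 were cultures at day 4 and day 15, D30 − DMSO was kept to day 30 without the solvent, and D30 + DMSO received 2% DMSO from day 15 to day 30. D34 ± DMSO was treated like D30 + DMSO and collected at day 34, 4 days after DMSO had been removed. None of the 5 conditions was kept in DMSO to day 34. In every comparison of D34 ± DMSO, DMSO removal and 4 further days of culture therefore cannot be told apart. All arrays carry the same cell line, without genetic modification stated in the labels, and the cells at every stage were grown with serum, insulin and hydrocortisone. The study's methods describe the replicates as biologically independent, while the labels give only their numbers. HepaRG is 1 line of tumor origin, and its cells were not sorted, so that fewer cells of a type and less RNA per cell cannot be told apart.

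Cells cannot degrade the sterol ring, so surplus cholesterol has to be exported. ABCA1 loads cholesterol and phospholipid onto lipid-poor apolipoprotein A-I, the first step in forming high-density lipoprotein (HDL), and ABCG1 passes cholesterol to HDL particles that already exist. ABCG5 and ABCG8 are half-transporters that work only as a pair, at the bile canaliculus of hepatocytes and in the gut, where they secrete plant sterols and cholesterol. Loss of either partner causes sitosterolemia, and loss of ABCA1 causes Tangier disease. All 4 genes are textbook targets of the liver X receptors (LXR), which sense oxysterols and bind DNA together with the retinoid X receptors (RXR).

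ABCG5 and ABCG8 lie head to head on chromosome 2. In the RefSeq annotation of GRCh38.p14 ABCG5 spans positions 43806211 to 43839231 and ABCG8 positions 43838971 to 43882988, so the annotated spans overlap at their starts. ABCA1 lies on chromosome 9, from 104781006 to 104928155, and ABCG1 on chromosome 21, from 42199689 to 42297244. The array probes carry the accessions NM_005502 for ABCA1, NM_207627 for ABCG1, NM_022436 for ABCG5 and NM_022437 for ABCG8. The exon that each probe reads was not examined. RefSeq promoter windows were matched for 3 of the 4 genes. The sequences printed here belong to the 3 genes called at D15, namely the stretch shared by ABCG5 and ABCG8 and the one before ABCA1.

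The stretch between the ABCG5 and ABCG8 start sites of the promoter table, chr2:43838840-43838970, is printed on the plus strand, with ABCG8 to its right. Capitals mark GATAA, the core of a GATA factor site, read on the other strand:
ABCG5-ABCG8: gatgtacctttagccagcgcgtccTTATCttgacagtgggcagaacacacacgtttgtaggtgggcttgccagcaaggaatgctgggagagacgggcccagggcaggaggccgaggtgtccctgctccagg
The 131 bases are the whole distance between the start sites in that table, and the marked letters lie at 43838864 to 43838868, 25 to 29 bases before the ABCG5 start (29 being the farther end). GATAA occurs on either strand in 20.4% of the 35116 RefSeq promoter windows of 250 bases, which are longer than the printed 131. The window of 250 bases before ABCG8 holds another copy, at 43838834 to 43838838, outside the printed stretch.

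The 250 bases before the ABCA1 start, chr9:104928156-104928405 on the minus strand, are printed with capitals for a direct repeat spaced by 4 bases (DR4), the arrangement that LXR and RXR bind:
ABCA1: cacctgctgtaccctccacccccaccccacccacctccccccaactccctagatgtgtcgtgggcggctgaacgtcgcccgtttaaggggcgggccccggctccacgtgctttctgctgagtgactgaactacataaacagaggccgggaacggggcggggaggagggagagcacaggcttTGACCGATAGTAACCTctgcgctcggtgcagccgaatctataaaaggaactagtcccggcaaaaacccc
The search used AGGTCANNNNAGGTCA on both strands with at most 3 mismatches, and the marked site has 2. It lies 54 to 69 bases before the start. A match with at most 3 mismatches occurs in 16% of the windows, and the share with at most 2 was not counted. The window also holds 3 copies of GGGCGG, which 42.6% of windows contain, 1 of CACGTG (6.34%) and 1 of TATAAA (10.7%). No DR4 match was found in the 250 bases before ABCG5 or ABCG8, which says only that these letters are not in those windows.

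Signals below are the processed signals of the array software, scaled so that every array has the same 75th percentile, 371 intensity units. A log2 value is relative to that percentile. A pairwise call required both a limma adjusted p (Benjamini-Hochberg) under 0.005 and over 2-fold difference. Signals of different probes are not compared with each other. Between 61.1% and 74.2% of the 58717 spots of an array were well above background, and replicate arrays correlated with r between 0.955 and 0.992. The arrays came from 4 slides scanned in 2 sessions. The slide of the second session held replicate 4 of every condition and also replicate 3 of D15 and D30 + DMSO. On this slide lay the lowest D30 − DMSO, D30 + DMSO and D34 ± DMSO signals of ABCA1, ABCG5 and ABCG8, in each case replicate 4. The labels name the cells hepatic stem cells at every stage. On all 4 D4 arrays 7 of 8 hepatocyte markers and 6 of 6 tested biliary markers were well above background (EPCAM and CFTR were not tested). From these lists, 8 of 8 hepatocyte genes rose from D4 to D15, among them TF (transferrin) by 5.05 and CYP3A4 by 4.18 on the log2 scale, and 5 of 5 proliferation genes fell, of which TOP2A was not called without D4 replicate 1 or 4, or D15 replicate 1, 2 or 3 (−2.95 to −2.62). With every probe tested, MKI67 changed by −2.32 and was not called (limma adjusted p = 0.0142). The methods' t-test called 5 of the 8 and 3 of the 5. By limma all 5 proliferation genes rose again after DMSO removal, for example CDK1 by 3.85, while the methods' t-test called 1 of the 5. Summed signals of that list were 4682 to 7083 at D4, 428 to 912 at D30 + DMSO and 4213 to 9267 at D34 ± DMSO. The part of these shifts in the results below was not tested.

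**Figure D1:**
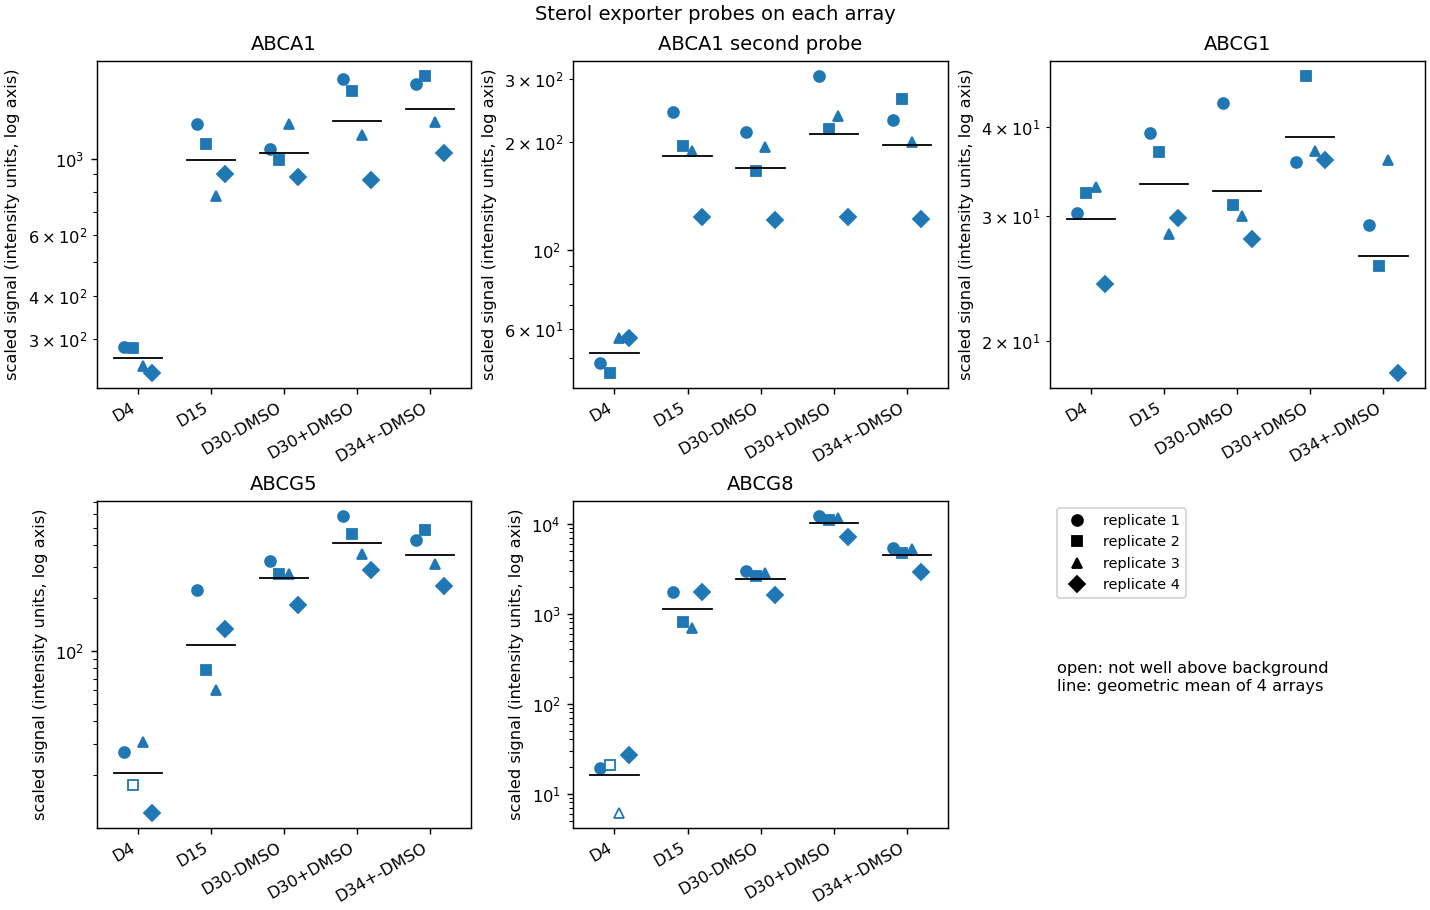
Scaled signal (intensity units, log axis) of the 5 member probes on each of the 20 arrays, by condition (D30-DMSO, D30+DMSO and D34+-DMSO are D30 − DMSO, D30 + DMSO and D34 ± DMSO); marker shapes are replicates, open markers were not well above background and lines are geometric means. ABCG8 runs from 6.11 to 26.8 at D4 up to 7176 to 12190 at D30 + DMSO, while ABCG1 stays between 18.1 and 47.2.

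The step from D4 to D15 leads from what the paper calls the progenitor stage to an intermediate stage committed to differentiation. In it 3 of the 4 exporters, ABCA1, ABCG5 and ABCG8, were called higher and ABCG1 was not called. Among all genes tested, 9.48% were called in either direction and 5.67% were called higher.

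ABCA1 gave scaled signals of 285, 281, 251 and 239 on the 4 D4 arrays and of 1258, 1102, 779 and 903 at D15. The D15 arrays were all above the D4 arrays, by 3.77-fold (log2 1.92, SE 0.22, limma adjusted p = 1.79e-06). The second ABCA1 probe read 48.3, 45.4, 56.7 and 56.8 at D4 and 242, 195, 188 and 124 at D15. It gave 3.53-fold (log2 1.82, SE 0.28, limma adjusted p = 7.12e-05), again without overlap. Within the 3 slides that held both conditions the first probe rose by 1.81 to 2.14 on the log2 scale.

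ABCG1 read 30.3, 32.3, 32.9 and 24.1 at D4 and 39.2, 36.9, 28.3 and 29.8 at D15. The conditions overlapped, and the log2 difference was 0.16 (95% interval −0.25 to 0.58, limma adjusted p = 0.651). All 20 arrays had this probe well above background, although its signal was low against the 75th percentile.

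ABCG5 read 26.7, 17.5, 30.8 and 12.1 at D4, where replicate 2 was not well above background, and 223, 78.6, 60.3 and 133 at D15. Every D15 array exceeded every D4 array, with a fitted change of 5.32-fold (log2 2.41, SE 0.38, limma adjusted p = 7.98e-05). The methods' t-test on the same values gave an adjusted p of 0.0266 and did not call it.

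ABCG8 read 19.5, 20.8, 6.11 and 26.8 at D4, with replicates 2 and 3 not well above background, and 1731, 808, 698 and 1727 at D15. The fitted change was 71.0-fold (log2 6.15, SE 0.40, limma adjusted p = 2.58e-09), and no D4 array came near a D15 array. The size is uncertain, because the D4 signals of ABCG5 and ABCG8 lay near the detection limit. Over all probes, the lowest scaled signal called well above background was 3.47 to 10.7 units, depending on the array. The limit differs between probes, since on D4 replicate 2 ABCG5 at 17.5 and ABCG8 at 20.8 were not well above background. Over the other settings tried the ABCG8 change ranged from 3.93 to 6.26 and the ABCG5 change from 1.16 to 2.59. Within slides ABCG8 rose by 5.36 to 7.05 and ABCG5 by 1.35 to 3.06.

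From D15 to D30 − DMSO, the 2 further weeks of culture without the solvent, none of the 4 exporters was called by limma, 2 had an unadjusted p below 0.05, and the methods' t-test called 0. Only 0.0135% of all genes were called in this step. ABCG5 reached 326, 274, 274 and 183 at D30 − DMSO, and ABCG8 3011, 2617, 2801 and 1620. Replicate 4 of ABCG8 lay below the highest D15 arrays, as did replicate 4 of ABCG5. Their log2 differences were 1.25 (unadjusted p = 0.00376, limma adjusted p = 0.93) and 1.10 (unadjusted p = 0.0132, limma adjusted p = 1). ABCA1 read 1064, 990, 1257 and 882 at D30 − DMSO, within the D15 range, and its log2 difference was 0.07 (95% interval −0.39 to 0.52). For ABCG1 the signals were 43.2, 31.1, 30.0 and 27.9, with a log2 difference of −0.03 (95% interval −0.45 to 0.38).

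With DMSO, ABCG8 alone was called, 1 of the 4 exporters, against 5.89% of all genes called in either direction and 1.74% called higher. ABCG8 read 12190, 10970, 11520 and 7176 at D30 + DMSO, all above the D30 − DMSO arrays. The change was 4.19-fold (log2 2.07, SE 0.40, limma adjusted p = 0.00109). On the 2 slides that held both conditions it was 1.94 and 2.49. Without D30 − DMSO replicate 4 the change was 1.87 with an adjusted p of 0.00539, just past the threshold, and by the methods' t-test the adjusted p was 0.00569.

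ABCG5 read 584, 465, 358 and 290 at D30 + DMSO. The 2 conditions overlapped, and the log2 difference was 0.66 (95% interval −0.13 to 1.45, limma adjusted p = 0.271). ABCA1 read 1704, 1573, 1171 and 866, with the lowest of these below every D30 − DMSO array. Its log2 difference was 0.30 (95% interval −0.15 to 0.76, limma adjusted p = 0.405), and the second probe gave 0.31. ABCG1 read 35.7, 47.2, 37.0 and 35.9, with a log2 difference of 0.25 (95% interval −0.17 to 0.66, limma adjusted p = 0.473).

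After removal of DMSO for 4 days none of the 4 exporters was called by limma, against 7.06% of all genes, with 2 at an unadjusted p below 0.05 and 0 called by the methods' t-test after adjustment. ABCG8 read 5392, 4787, 5286 and 2933 at D34 ± DMSO. All 4 arrays were below the D30 + DMSO arrays, by 1.20 on the log2 scale (95% interval −2.04 to −0.36), and the limma adjusted p of 0.0404 missed the threshold. On the 2 slides with both conditions the differences were −1.12 and −1.63. This comparison and the one with DMSO addition use the same 4 D30 + DMSO arrays, so that an extreme value there moves both. ABCG5 read 427, 488, 313 and 235, overlapping D30 + DMSO, with a log2 difference of −0.22 (95% interval −1.01 to 0.57). ABCA1 read 1644, 1739, 1275 and 1041, also overlapping, with a difference of 0.12 (95% interval −0.33 to 0.57). ABCG1 read 29.2, 25.5, 35.9 and 18.1, with a difference of −0.55 (95% interval −0.97 to −0.14, unadjusted p = 0.0118, limma adjusted p = 0.0543). The only ABCG1 overlap was that D34 ± DMSO replicate 3 exceeded D30 + DMSO replicate 1.

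Against D30 − DMSO, the D34 ± DMSO cells again had no exporter called by limma, with 1 at an unadjusted p below 0.05 and 0 by the methods' t-test, and 1.5% of all genes called. ABCG8 was 0.87 higher on the log2 scale (95% interval 0.03 to 1.71, limma adjusted p = 0.319), and D34 ± DMSO replicate 4 lay below 1 D30 − DMSO array. ABCA1 was 0.43 higher (95% interval −0.03 to 0.88, limma adjusted p = 0.39), and ABCG5 0.44 higher (95% interval −0.35 to 1.23).

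**Figure D2:**
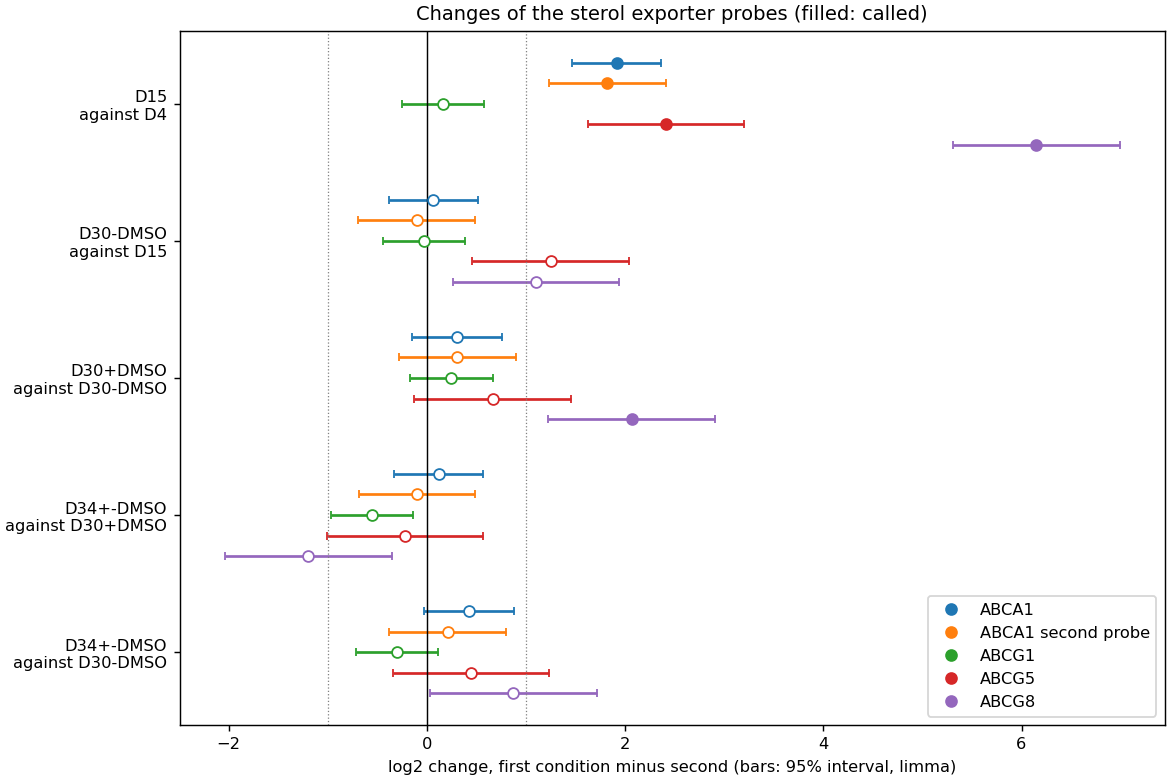
Log2 changes of the 5 member probes in the 5 comparisons (x axis, first condition minus second), with 95% limma intervals as bars, filled points for called changes and dotted lines at 2-fold. Filled points appear for D15 against D4, except ABCG1, and for ABCG8 at 2.07 with DMSO.

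Across all 5 conditions the limma F-test, requiring a Bonferroni p under 0.001 and over 3-fold from lowest to highest mean, called ABCA1, ABCG5 and ABCG8, against 5.29% of all genes. The span of means was 2.41 on the log2 scale for ABCA1 (adjusted p = 0.000152), 4.33 for ABCG5 (adjusted p = 8.32e-05) and 9.32 for ABCG8 (adjusted p = 1.36e-09). ABCG1 spanned 0.55 and was not called (adjusted p = 1). The second ABCA1 probe spanned 2.03 and was not called (adjusted p = 0.0862). The ABCA1 call was lost, at 2.36 to 2.44 with adjusted p between 0.00189 and 0.00282, when any of the 4 D4 arrays was left out. The ABCG5 call was lost without D4 replicate 2 (4.25, adjusted p = 0.00129).

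In the order of their means, ABCG5 and ABCG8 both ran from D4 through D15, D30 − DMSO and D34 ± DMSO to D30 + DMSO. In that order only the D4 to D15 step of each was called. ABCA1 ran from D4 through D15, D30 − DMSO and D30 + DMSO to D34 ± DMSO, and after D15 no neighbouring pair was called. ABCG1 had its lowest mean at D34 ± DMSO and its highest at D30 + DMSO.

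Because ABCG5 and ABCG8 proteins act as 1 transporter, the change of the ABCG8 probe was set against that of the ABCG5 probe on the same arrays. Different probes have different response, so unequal shifts of the 2 probes need not be unequal changes of their transcripts. From D4 to D15 the ABCG8 probe rose by 3.74 more than the ABCG5 probe on the log2 scale, and by as little as 2.77 under another setting. With DMSO it rose by 1.40 more, and after removal it changed by −0.98 relative to ABCG5. In each of the 3 comparisons the arrays of the 2 conditions did not overlap. Each gave p = 0.0286 in a two-sided exact permutation test of 4 against 4 arrays, the smallest this design allows, and 0.0286 after Benjamini-Hochberg adjustment over the 3. The within-array difference was 3.14 to 3.36 at D30 − DMSO, 4.38 to 5.01 at D30 + DMSO and 3.29 to 4.08 at D34 ± DMSO. At D4 it ran from −2.33 to 1.14, where 2 arrays lacked a probe well above background. Without D30 + DMSO replicate 3, the removal difference was −0.86 with p = 0.0571 in the exact test. When the arrays were paired by replicate number, the adjusted p of each comparison was 0.125 by an exact sign-flip test, the smallest that 4 pairs allow.

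**Figure D3:**
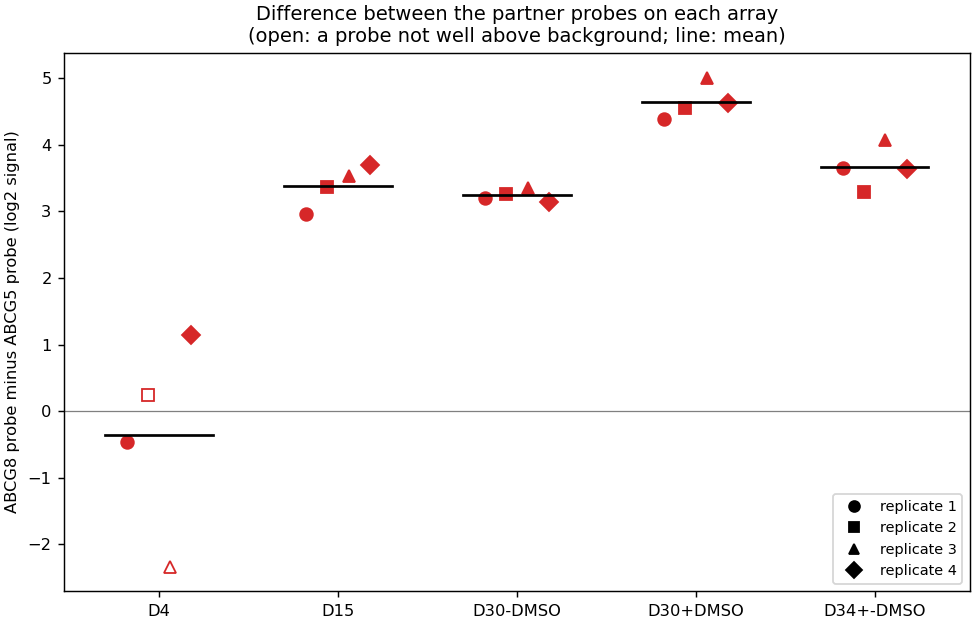
Log2 signal of the ABCG8 probe minus that of the ABCG5 probe on each array, by condition; shapes are replicates, lines are means and open markers show arrays on which a probe was not well above background. Only shifts along the axis can be read, as shifts of the probes, since different probes have different response. Unequal shifts need not be unequal changes of the transcripts. The D30 + DMSO arrays, at 4.38 to 5.01, stand above the D30 − DMSO arrays, at 3.14 to 3.36.

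Among the receptors, NR1H3, which encodes LXRα, rose from scaled signals of 1096 to 1314 at D4 to 2739 to 3253 at D15, without overlap (log2 1.37, SE 0.14, limma adjusted p = 7.98e-07). RXRA, the partner RXRα, went from 2598 to 3291 up to 5023 to 5672, a log2 difference of 0.87 (limma adjusted p = 0.000138) that stayed under 2-fold and was not called. NR1H2, which encodes LXRβ, overlapped between D4 and D15 (log2 0.21, limma adjusted p = 0.728). RXRG was not among the tested genes. Of the 4 LXR and RXR genes tested, 1 was called in this step, with a list median of 0.54 against 0.02 for all genes. With DMSO none of the 4 was called by limma or the methods' t-test, none had an unadjusted p below 0.05, and NR1H3 changed by 0.19 and RXRA by 0.20. After removal they gave −0.31 and −0.29, again without a call by either test, and 1 of the 4 had an unadjusted p below 0.05.

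Of 10 other LXR target genes, all tested, 3 rose and none fell from D4 to D15, with a median of 0.44. APOC1, an apolipoprotein of HDL and triglyceride-rich particles, rose by 3.32 (limma adjusted p = 1.74e-08). APOE, the lipoprotein ligand, rose by 2.07 (limma adjusted p = 2.16e-07) and SMPDL3A, a phosphodiesterase, by 1.80. SMPDL3A is named for this step because few genes of the list were called, after its value was seen. With DMSO no gene of this list was called by limma or the methods' t-test, although 5 had an unadjusted p below 0.05 and the median was 0.30. After removal SMPDL3A fell by 1.05 (limma adjusted p = 0.000254), the single call, and the list median was −0.54 against −0.04 for all genes. That call was lost without D34 ± DMSO replicate 2 or 4 (−0.99 and −0.93), where the change dropped under 2-fold, and under quantile normalization (−0.98), normexp background correction (−0.97), the fit of only the arrays compared (adjusted p = 0.00547) and the methods' t-test (adjusted p = 0.0143).

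Of the 9 HDL particle genes tested, APOA4 had 0 of 4 arrays well above background at D4 and at D15, and so has no measured change in that step. Of the other 8, 5 rose from D4 to D15 and the median was 2.51. APOA2, an HDL protein, rose by 5.50 (limma adjusted p = 3.57e-08), with 3 of 4 D4 arrays well above background and 3.84 under normexp background correction, and APOC3, which restrains triglyceride clearance, by 5.39. With DMSO 2 of 9 rose, APOA4 by 3.92 (limma adjusted p = 3.67e-07) and APOC3 by 2.06, with a list median of 0.68. APOA4, which encodes an apolipoprotein of chylomicrons and HDL, gave 2.08 with DMSO and −1.78 after removal under normexp, still called. After removal 3 fell, APOA4 by 2.97, APOC3 by 1.61 and APOM, a carrier of sphingosine-1-phosphate named here after its value was seen, by 1.12, with a list median of −0.33. The APOC3 fall (limma adjusted p = 0.00483) was lost when any 1 of the 8 arrays of D30 + DMSO and D34 ± DMSO was left out (−1.72 to −1.42, adjusted p 0.00675 to 0.0197). It was also lost under 6 other settings (−1.61 to −1.37, adjusted p 0.00505 to 0.012), and the methods' t-test called 2 of the 3 falls.

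Of 15 genes that take sterol up or move it inside cells, all tested, only GRAMD1C, a sterol carrier between membranes, was called from D4 to D15, with a rise of 2.10 (limma adjusted p = 7e-06; 1.44 under normexp), and the list median was −0.10. No gene of this list was called by limma or the methods' t-test in a later step, with 1, 5, 3 and 4 at an unadjusted p below 0.05. Among 5 tested enzymes that form oxysterols and bile acids, 2 rose at D15. CYP8B1, which sets the cholic acid share of bile acids, rose by 6.84 and CYP7A1, the rate-limiting enzyme of bile acid synthesis, by 4.33 (limma adjusted p = 1.09e-08 and 0.000129). Only 1 and 2 of 4 D4 arrays, respectively, had these probes well above background, so the sizes are uncertain. Under normexp CYP8B1 gave 4.13, and CYP7A1 gave 1.73 (adjusted p = 0.00977) and was no longer called. The methods' t-test also did not call CYP7A1 (adjusted p = 0.0152). Later steps called none of the 5 by limma or the methods' t-test, with 0, 2, 2 and 3 at an unadjusted p below 0.05. With DMSO CYP8B1 changed by 2.11, over 2-fold, but its limma adjusted p of 0.00595 missed the threshold. The list median was 0.68 with DMSO and −0.66 after removal.

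Among 8 other hepatic transporters of the canalicular and basolateral membrane, 3 rose from D4 to D15 with a list median of 1.02. ABCB1, the multidrug exporter, rose by 2.45 (limma adjusted p = 0.000191), ABCB4, the phosphatidylcholine floppase, by 2.45 (limma adjusted p = 2.42e-05), and ABCC6 by 1.38, the last named after its value was seen and with 2.64 on another probe. The ABCB1 call was lost in the fit of only the arrays compared (adjusted p = 0.00616) and by the methods' t-test (adjusted p = 0.0368). With DMSO and after its removal none of the 8 was called by limma or the methods' t-test, and 3 and 2 had an unadjusted p below 0.05. Against D30 − DMSO, the D34 ± DMSO cells had ABCC2, the canalicular conjugate exporter, higher by 1.24 (limma adjusted p = 0.00306). This call was lost without any of the D30 − DMSO arrays or D34 ± DMSO replicate 1, 2 or 4 (1.03 to 1.30, adjusted p 0.00607 to 0.0151). It was lost too without the filter on dim probes (adjusted p = 0.00741), in the fit of only the arrays compared (0.0218) and by the methods' t-test (0.0587).

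Of 10 tested relatives of the A and G subfamilies, 2 rose at D15, with a list median of 0.28. ABCA6 rose by 5.36 (limma adjusted p = 3.83e-10), with 1 of 4 D4 arrays well above background, and ABCA3, a lipid transporter of lung surfactant, by 1.48. Under normexp ABCA6 gave 3.00 and ABCA3 0.69, the latter no longer called. With DMSO the list median was −0.44, against 0.04 for all genes, while ABCA12, a transporter of skin lipids, fell by 1.94 (limma adjusted p = 3.31e-05) and ABCA3 rose by 1.05. ABCA6 was lower with DMSO by 1.23, and its limma adjusted p of 0.00547 missed the threshold. In this comparison 7 of the 10 genes had an unadjusted p below 0.05. After removal ABCA12 rose by 2.75 (limma adjusted p = 4.59e-07), ABCA6 rose by 1.65 and ABCA3 fell by 1.00. The ABCA3 calls stood close to 2-fold. The rise was lost without D30 − DMSO replicate 2 or D30 + DMSO replicate 3 or 4 (0.97 to 0.99). The fall was lost without D30 + DMSO replicate 3 or 4, or D34 ± DMSO replicate 1 or 3 (−0.98 to −0.93). Normexp (0.66 and −0.60), the scan session as a block (0.96 and −0.91) and the methods' t-test (adjusted p = 0.0088 and 0.00935) lost both, the slide as a block lost the fall (−0.94), and the methods' t-test also lost the ABCA6 rise after removal (adjusted p = 0.0152).

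Of 11 transcription factors listed as possible regulators of these genes, 4 rose from D4 to D15 and the median was 0.79. Their action on the promoters was not tested. NR0B2, the orphan repressor SHP, rose by 3.76 (limma adjusted p = 6.26e-08), with 2 of 4 D4 arrays well above background and 1.58 under normexp, and NR1H4, the bile acid receptor FXR, by 3.40. The other 2, named after their values were seen, were NR5A2, the liver receptor homolog, which rose by 2.16, and HNF4A, a hepatocyte regulator. For NR5A2 another probe gave 0.55 and was not called (adjusted p = 0.228), so its probes disagree. HNF4A stayed near background on all 4 D4 arrays and was called higher at D15 (limma adjusted p = 7.53e-08). An estimate of its rise in the main setting was 4.01-fold. This estimate set the mean D15 log2 signal against a D4 mean. For that mean, each D4 array gave the higher of its own signal and the lowest signal well above background of any probe on it. The limit of the HNF4A probe itself may be higher. Normexp background correction gave HNF4A a log2 change of 0.56 (adjusted p = 0.00151), under 2-fold and not called. A floor of 10 intensity units kept the call but gave a rise smaller than 4.01-fold. The size of the HNF4A rise is therefore uncertain, and 4.01-fold is not a lower bound across settings. With DMSO NR0B2 rose by 1.55 (limma adjusted p = 0.0019), and after removal it fell by 2.78 (limma adjusted p = 4.37e-06). The rise with DMSO was lost without D30 − DMSO replicate 3 or 4, or D30 + DMSO replicate 1 or 3 (1.34 to 1.55, adjusted p 0.00607 to 0.0102). It was lost as well in the fit of only the arrays compared (adjusted p = 0.00771), and the methods' t-test called neither change (adjusted p = 0.0286 and 0.00929). GATA4 and GATA6 belong to the factors whose site core is marked between ABCG5 and ABCG8, and binding at that site was not tested. Both genes were tested in this list and not called in any of the 5 comparisons. GATA6 passed the p threshold under 2-fold at D15 (log2 0.79, limma adjusted p = 0.000287) and after removal (−0.85, limma adjusted p = 0.000181), with 0.55 under DMSO (limma adjusted p = 0.00872). GATA4 gave 0.73, 0.33 and −0.39 in these comparisons (limma adjusted p = 0.0376, 0.446 and 0.318).

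**Figure D4:**
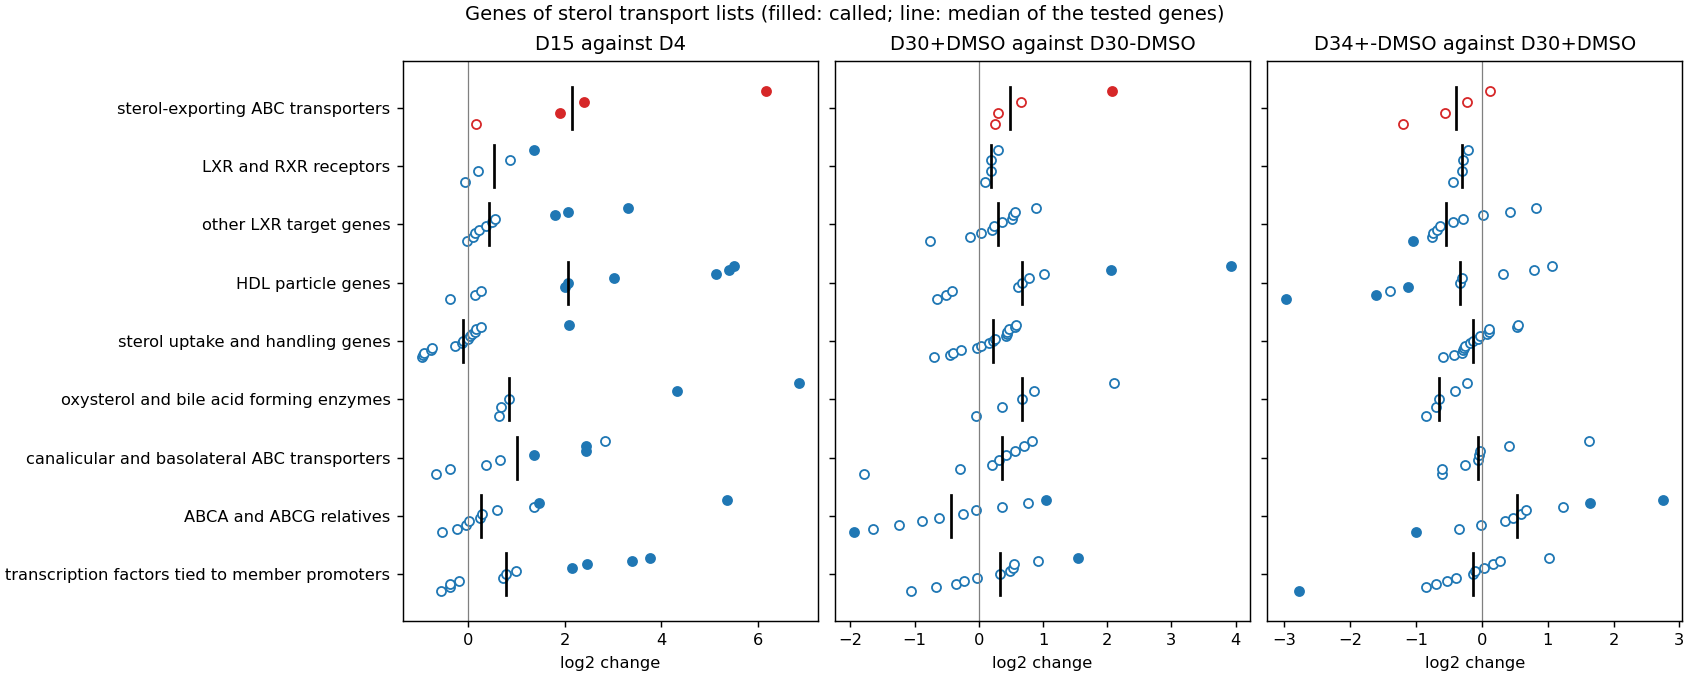
Log2 changes (x axis) of the 4 exporters and of the tested genes of 8 related lists in 3 comparisons, with filled points for called genes and a black line at each list median. The exporters spread from 0.16 to 6.15 at D15 against D4, and with DMSO ABCG8, at 2.07, is the filled exporter.

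The genes whose log2 signals followed each exporter most closely over the 20 arrays were read as a description only, because the D4 arrays lie apart from the others and dominate the measure. For ABCG8 they were DAO (D-amino acid oxidase, Pearson r = 0.995), CYP8B1 (0.994) and F12 (coagulation factor XII, 0.994). For ABCG5 they were the pseudogene URAHP (0.972), SLC22A7 (an organic anion transporter, 0.971) and PPP1R1A (0.970). For ABCA1 they were XDH (xanthine dehydrogenase, 0.981), and 2 transcripts without a current symbol (0.981 and 0.979). The closest named gene for ABCG1 was GRHL2, an epithelial transcription factor, at 0.852, below the values of the other 3.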

How the data were processed

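The authors deposited, for each array, Feature Extraction output (version 10.7.1.1 in the file headers, 10.7.3.1 in the labels) whose processed signal is an intensity, corrected for background but not for differences between arrays, with 0 or 1 flags for spots well above background, saturated or outlying. They also deposited a log2 matrix, which for the 21743 probes well above background on all arrays equals the log2 processed signal minus the 75th percentile of the array and a baseline per probe (median absolute difference 3.55e-07); for other probes this was not shown.

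Here, spots of a probe were averaged, scaled to a common 75th percentile (array values 283 to 529.9 units), floored at 1 and put on the log2 scale. A probe stayed if in some condition all 4 arrays had it well above background (26540 of 42405). Each gene was represented by its brightest probe on average (3703 genes had several), and RefSeq named 24826 probes. One linear model of 5 condition means over 20 arrays was fitted with limma 3.58.1 in R 4.3.3. Thresholds follow the study's methods, with limma in place of its t-test because each condition has 4 arrays. The number of arrays limits precision. For the second ABCA1 probe the model was refitted with it in place of the first. Partner changes were tested by exact permutation.

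Named genes are the 4 members, NR1H2, NR1H3, RXRA, up to 2 called genes with the largest rise and 2 with the largest fall per list and comparison, and the 3 closest correlates of each member. Members and lists were chosen with earlier results of these data known. Some genes of the lists are not reported here, and list counts and medians leave them out. In simulated data, with 200 of 22223 genes changed 4-fold, 79.5% to 85% were recovered in the 5 comparisons. The Benjamini-Hochberg threshold depends on how many genes change. Only 3 genes were called in the real step from D15 to D30 − DMSO, so the simulated recovery does not carry over to that step. Promoter sequences are from RefSeq. The alternatives were quantile normalization, normexp (offset 50), the deposited matrix, a floor of 10, other filters, every probe, slide, scan session or replicate number as a block, the methods' t-test or analysis of variance, fits of only the arrays compared, and leaving out each array.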

Additional observations from a re-analysis of the deposited data

Results flagged for a closer look

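In each condition, the 4 members (5 probes) and NR1H2, NR1H3 and RXRA were examined for an array far from the other 3, by its gap to the nearest array divided by the range of the 4. Of 40 groups of 4 arrays, 4 exceeded Dixon's 95% critical value for 4 values, and chance alone exceeds it in about 1 of 20 groups. The gap was 0.874 of the range for ABCG1 at D30 + DMSO, where replicate 2 stood at −2.98 on the log2 scale and the nearest array at −3.33. For NR1H2 it was 0.901 at D4 (replicate 4 at 0.12, nearest −0.73) and 0.9 at D30 − DMSO (replicate 4 at 0.32, nearest −0.80). For NR1H3 it was 0.835 at D30 + DMSO (replicate 4 at 2.93, nearest 3.38). The NR1H2 and NR1H3 arrays lay on the slide of the second scan session. The cause was not tested.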

How the results depend on the processing

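No member value reversed direction among calls. With only probes well above background on all arrays, ABCG5 and ABCG8 drop out by construction, leaving 1 member called at D15 against D4, 0 with DMSO and 1 by the F-test. The methods' t-test left ABCG5 at 2.41 (adjusted p = 0.0266) at D15 against D4 and ABCG8 at 2.07 (0.00569) with DMSO uncalled, so that 0 members were called with DMSO. The analysis of variance left ABCA1 at 2.41 (0.00146) and ABCG5 at 4.33 (0.00191) uncalled, with 1 member called. Leaving out 1 array gave 1.87 to 2.24 for ABCG8 with DMSO (0 to 1 member called). It gave F-test spans of 2.30 to 2.55 for ABCA1 and 4.07 to 4.52 for ABCG5 (1 to 3 members called), and −1.11 to −0.85 for the ABCG8 change relative to ABCG5 after removal. The causes of these losses were not tested.

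The labels give no pairing beyond the replicate number. Deviations of same-numbered arrays correlated with a median r of 0.255 (−0.309 to 0.794, over 0.1 in 27 of 40 pairs), and those of arrays of the same slide with 0.376. With the replicate block no member call changed. Pairing by number gave ABCG8 minus ABCG5 changes of 3.74, 1.40 and −0.98, each with an adjusted p of 0.125 by the exact sign-flip test. Of 57 calls of list and marker genes, including those named after their values were seen, 31 were lost under at least 1 alternative and none reversed. Low signal limits ABCG5 and ABCG8 at D4, where 3 and 2 of 4 arrays were well above background.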

Other observations

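Single markers of other cell states changed in the same comparisons, and their part in the exporter values was not tested. CYP3A4, the main drug-metabolising cytochrome of liver, was the single hepatocyte marker called with DMSO and after its removal, with log2 changes of 4.07 and −6.50 (limma adjusted p = 9.37e-09 and 1.26e-11). In each of these comparisons 4 of the 8 hepatocyte markers had an unadjusted p below 0.05. The hepatocyte list median was 0.49 with DMSO and −0.36 after removal, against 0.04 and −0.04 for all genes. Summed hepatocyte signals were 853300 to 892700 at D30 − DMSO, 990200 to 1690000 at D30 + DMSO and 829900 to 1043000 at D34 ± DMSO. Of 6 tested biliary markers, SPP1, which encodes osteopontin, rose by 1.67 from D4 to D15, fell by 1.78 with DMSO and rose by 2.24 after removal. The list medians were 0.15, −0.08 and 0.13. SOX9, a biliary and progenitor factor, went the other way, by 1.30 with DMSO and −2.07 after removal. The SOX9 rise was lost without D30 − DMSO replicate 2, 3 or 4, or D30 + DMSO replicate 3 or 4 (1.19 to 1.29, adjusted p 0.00511 to 0.00798) and under normexp (0.80), which put the fall at −1.11. The methods' t-test called none of these SPP1 and SOX9 changes (adjusted p 0.00677 to 0.00936). Of 5 tested macrophage markers, CD68, a lysosomal protein also made outside macrophages, rose by 1.39 from D4 to D15, a call lost in the fit of only the arrays compared (adjusted p = 0.00776) and by the methods' t-test (adjusted p = 0.0327). MARCO, a scavenger receptor, rose by 2.04 after removal (limma adjusted p = 0.00218), with 1 of 4 D30 + DMSO arrays well above background. This MARCO call was lost without D30 + DMSO replicate 1, 3 or 4, or any D34 ± DMSO array (1.57 to 2.09, adjusted p 0.00519 to 0.00744). Under normexp the change was 0.21 (adjusted p = 0.341), and with a floor of 10 it was 1.24, so its size rests on signals near background at D30 + DMSO. It was not called without the filter on dim probes (adjusted p = 0.00551), in the fit of only the arrays compared (0.0167) or by the methods' t-test (0.0583). Summed signals of the macrophage list were 1697 to 2434 at D4 and 3218 to 3951 at D15. Those of the biliary list were 92240 to 156200 at D4 and 73040 to 101000 at D15. Bright probes weigh most in all such sums. Most of the biliary sum came from KRT19 (79300 to 142300 at D4, 53980 to 79620 at D15). Most of the macrophage sum came from CD14 (1307 to 1963 at D4, 2566 to 2937 at D15). Both genes were named after their values were seen. Against D30 − DMSO, D34 ± DMSO cells had 3 of 5 proliferation genes higher, CDK1 by 3.24, CCNB1 by 2.45 and MKI67 by 2.35, of which the methods' t-test called 0. The CCNB1 call was lost without D30 − DMSO replicate 1, 2 or 3, or D34 ± DMSO replicate 1 or 4 (2.02 to 2.44, adjusted p 0.00965 to 0.0135). CYP3A4 was lower there, with a log2 difference of −2.43 that the methods' t-test did not call (adjusted p = 0.0219).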
